A study of Homo sapiens with 96 samples.

Results

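Chlorpyrifos and fluoxetine were compared at the exposure labelled IC5, in cultures of human neural cells that received both compounds in the same solvent. The comparison uses 16 of the 96 libraries of the series, all 8 labelled chlorpyrifos IC5 and all 8 labelled fluoxetine IC5. The cells descend from the established embryonic stem cell line H9. Neural progenitor cells made from H9 were moved to a differentiation medium to give neurons and astrocytes together, and RNA was taken at day 10. Chlorpyrifos is an organophosphate insecticide, and fluoxetine, given as the hydrochloride, is an antidepressant that blocks serotonin reuptake. Both were dissolved in dimethyl sulfoxide (DMSO), at 0.25% of the medium. The labels name a concentration by the percentage of inhibition it causes, here 5%. The sources used here do not give molar concentrations, how long the cells were exposed or which readout was inhibited, so the groups are matched by label and vehicle and not by molar dose.

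For reference, the report also uses the 8 unexposed day 10 libraries (controls) and, for each compound, the 8 libraries of a lower concentration, the IC20 diluted 100 times (IC20/100). The sources used here do not say whether controls received DMSO, whereas the IC20/100 groups share the vehicle with the IC5 groups. The 8 libraries of each group came from a single experiment as technical replicates, so p-values measure only the spread among such libraries. Values are normalized reads, that is, read counts divided by 1 size factor per library. A gene is called where the adjusted p is below 0.05 (limma with sequencing run as a term, Benjamini-Hochberg adjustment over 20136 genes tested). A log2 difference is chlorpyrifos minus fluoxetine unless another pair is named, with its standard error, on the scale of log2(value + 2).

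The depth, in megareads (M), was 11.4 to 24.0 for chlorpyrifos IC5 (median 16.0) and 11.3 to 25.4 for fluoxetine IC5 (median 20.6). The young neuron marker DCX stood at 24600 to 28900 normalized reads with chlorpyrifos and at 25200 to 27900 with fluoxetine. The progenitor marker SOX2 stood at 2725 to 3386 and 2640 to 3541. Astrocyte markers were unevenly present. The glutamate transporter gene SLC1A2 lay between 2321 and 4558 normalized reads over the 16 libraries, while GFAP lay between 3.33 and 53.9 and the water channel gene AQP4 reached at most 7.78, with 3 fluoxetine libraries at 0. Of markers of cells the cultures should lack, the microglial gene AIF1 was at 0 in 7 chlorpyrifos and 6 fluoxetine libraries, whereas the endothelial genes CLDN5 and PECAM1 were above 0 in all 16, at 16.1 to 36.6 and 4.58 to 19.9. Collagen genes of mesenchyme were present, COL1A1 and COL3A1 between 29.9 and 360.1 normalized reads and COL1A2 between 959 and 1620. They are described beside CCN2.

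Cells hold their cholesterol level steady through SREBP2, a membrane-bound transcription factor (gene SREBF2) that is cut free when sterol in the endoplasmic reticulum is low and then switches on the synthesis and uptake genes. Its relative SREBP1 (gene SREBF1) acts mostly on fatty acid synthesis. Cholesterol taken up by the cell passes through lysosomes, where NPC2 hands it on for export. Fluoxetine is a cationic amphiphilic drug, a class known to collect in lysosomes. Chlorpyrifos is known for inhibiting acetylcholinesterase through its oxon metabolite.

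The promoters of the sterol genes that differed most clearly are shown first, with the pentamer CCAAT in capitals on either strand (its reverse complement is ATTGG). This pentamer is the core of the site of NF-Y, a factor known to work beside SREBP at sterol genes. Each window runs from 250 bases before to 50 bases after a RefSeq transcription start on GRCh38.p14. It is written 5′ to 3′ on the gene's strand. HMGCS1, the synthase that starts the sterol branch, is at chr5:43313363-43313662, minus strand. DHCR7, the last reductase of cholesterol synthesis, is at chr11:71448344-71448643, minus strand. STARD4, a carrier of cholesterol between membranes, is at chr5:111512486-111512785, minus strand. HMGCS1 and DHCR7 have 2 starts each in the RefSeq table, of which the one listed first is shown.
HMGCS1: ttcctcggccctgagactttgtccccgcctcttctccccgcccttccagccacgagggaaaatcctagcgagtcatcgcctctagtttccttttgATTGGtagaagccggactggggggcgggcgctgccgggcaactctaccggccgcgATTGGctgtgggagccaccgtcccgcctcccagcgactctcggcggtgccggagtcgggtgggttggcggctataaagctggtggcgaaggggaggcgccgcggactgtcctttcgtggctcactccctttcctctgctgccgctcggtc
DHCR7: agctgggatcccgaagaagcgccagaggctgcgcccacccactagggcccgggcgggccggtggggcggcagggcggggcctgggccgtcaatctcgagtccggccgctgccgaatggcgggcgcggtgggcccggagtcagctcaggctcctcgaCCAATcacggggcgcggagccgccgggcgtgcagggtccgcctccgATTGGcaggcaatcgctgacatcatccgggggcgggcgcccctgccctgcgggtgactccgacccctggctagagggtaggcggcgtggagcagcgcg
STARD4: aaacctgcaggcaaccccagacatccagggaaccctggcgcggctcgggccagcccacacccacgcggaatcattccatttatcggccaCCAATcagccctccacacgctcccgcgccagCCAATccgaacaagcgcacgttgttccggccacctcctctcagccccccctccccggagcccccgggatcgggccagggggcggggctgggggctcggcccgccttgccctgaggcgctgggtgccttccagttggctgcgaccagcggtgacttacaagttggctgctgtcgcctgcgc

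Each of these windows holds CCAAT 2 times. In the whole RefSeq table, 34.6% of 35116 promoters of this length hold it at least once and 10.8% at least 2 times. Promoters were found for 18 of the 25 genes in the list of cholesterol synthesis and uptake. Of these 18, 15 (83.3%) hold CCAAT and 10 (55.6%) hold it at least 2 times. A match of letters is a description of the window and does not show that a factor bound there.

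In the comparison over all genes, 1374 of 20136 (6.82%) were called, 730 higher (3.63%) and 644 lower (3.20%) with chlorpyrifos than with fluoxetine. Of these, 89 were higher and 139 lower by at least 1.5-fold. The median log2 difference of all genes was 0.00, and for 377 genes (1.87%) no library of one compound reached into the range of the other. A fit of the 16 libraries alone, with 9 residual degrees of freedom in place of 72, called 442 higher and 474 lower. Without methyl mercury IC20/100 replicate 8, whose deposited total of 20.95 M stands apart from the 18.11 to 18.99 M of the other day 10 libraries, 1020 were higher and 933 lower. In the fit of the 16 libraries alone 79 of the 89 genes named below as called kept their call. The 10 others have their adjusted p from it printed where they are described.

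**Figure D1:**
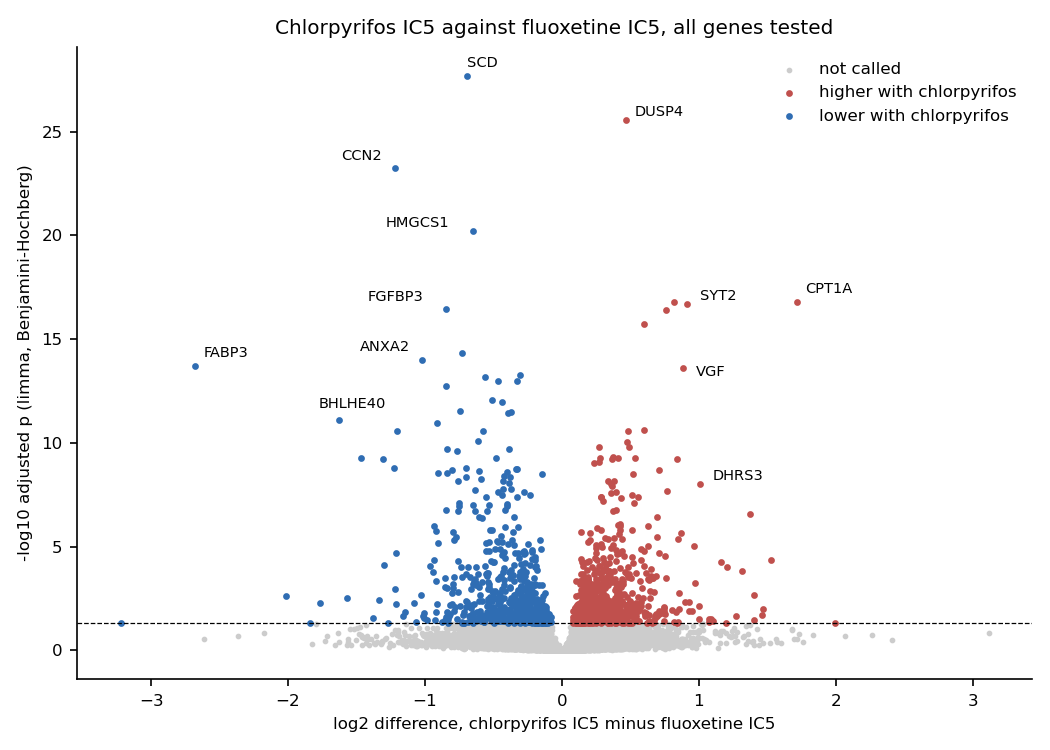
Each dot is 1 of 20136 genes, with the log2 difference between chlorpyrifos IC5 and fluoxetine IC5 (8 libraries each) on the horizontal axis and -log10 of the limma adjusted p on the vertical axis. The dashed line marks an adjusted p of 0.05. SCD and CCN2 lie high on the side of lower values with chlorpyrifos, DUSP4 and CPT1A on the other side, and FABP3 lies far left at -2.68.

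Cholesterol synthesis genes were lower with chlorpyrifos than with fluoxetine, in nearly the whole pathway. Of 25 list members, 19 were lower and 0 higher, against 3.20% of all genes called lower, and the list's median log2 difference was -0.39. In 13 of the 25 the 2 sets of libraries did not overlap, against 1.87% of all genes. The called differences ran from -0.70 to -0.20, and the 6 members that were not called, from -0.33 to -0.02. Summed over the list, chlorpyrifos libraries held 86000 to 89690 normalized reads, fluoxetine libraries 116900 to 126400 and controls 89850 to 96560. The count stayed between 18 and 20 in every alternative fit and with any 1 of the 16 libraries left out.

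HMGCS1 (chr5:43289395-43313512, minus strand, GRCh38) makes HMG-CoA, the substrate of the enzyme that statins block. It was at 20850 to 22360 normalized reads with chlorpyrifos (median 21980) and at 31780 to 35760 with fluoxetine (median 34000). Every fluoxetine library was thus above every chlorpyrifos library, and the controls, at 22820 to 25720, lay between them. The log2 difference was -0.65 ± 0.04 (adjusted p = 6.2e-21). DHCR7 was at 1019 to 1414 with chlorpyrifos and at 1704 to 2392 with fluoxetine, a log2 difference of -0.70 ± 0.09. STARD4 was at 970 to 1218 and 1697 to 2118, and its log2 difference was -0.70 ± 0.09. For neither gene did the groups overlap. MVD, which makes isopentenyl diphosphate, was at 1369 to 2090 and 2093 to 3265 (log2 difference -0.58 ± 0.12). LSS, the cyclase that forms lanosterol, was more spread, at 2820 to 5661 and 5471 to 8161, so that its groups overlapped at the edge (log2 difference -0.70 ± 0.17, adjusted p = 0.0045).

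SREBF2 lies outside the rule for named genes and was chosen after its values were seen, because it encodes SREBP2. It was at 9954 to 10970 normalized reads with chlorpyrifos and 13240 to 14270 with fluoxetine, with no overlap (log2 difference -0.40 ± 0.06, adjusted p = 8.6e-08).

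Set against the controls, the sterol list behaved differently for the compounds. These contrasts and the direct one share libraries and are given side by side. With fluoxetine IC5, 20 of the 25 members were higher than in controls and 0 lower, where 11.4% of all genes were called, 5.47% higher and 5.94% lower. With chlorpyrifos IC5, 6 were higher and 7 lower, where 19.7% of all genes were called, 9.92% higher and 9.75% lower. HMGCS1 differed from controls by 0.50 ± 0.04 on the log2 scale with fluoxetine and by -0.15 ± 0.04 with chlorpyrifos. MVD was above controls in both, by 1.09 ± 0.12 with fluoxetine and 0.51 ± 0.12 with chlorpyrifos. Its medians at IC20/100 were 1700 with chlorpyrifos and 1588 with fluoxetine, against 1151 in controls. At IC20/100, HMGCS1 was at 20630 to 23610 with chlorpyrifos and at 20310 to 23220 with fluoxetine, both near the chlorpyrifos IC5 range. SREBF2 at IC20/100 was at 10170 to 11200 and 9839 to 11920.

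**Figure D2:**
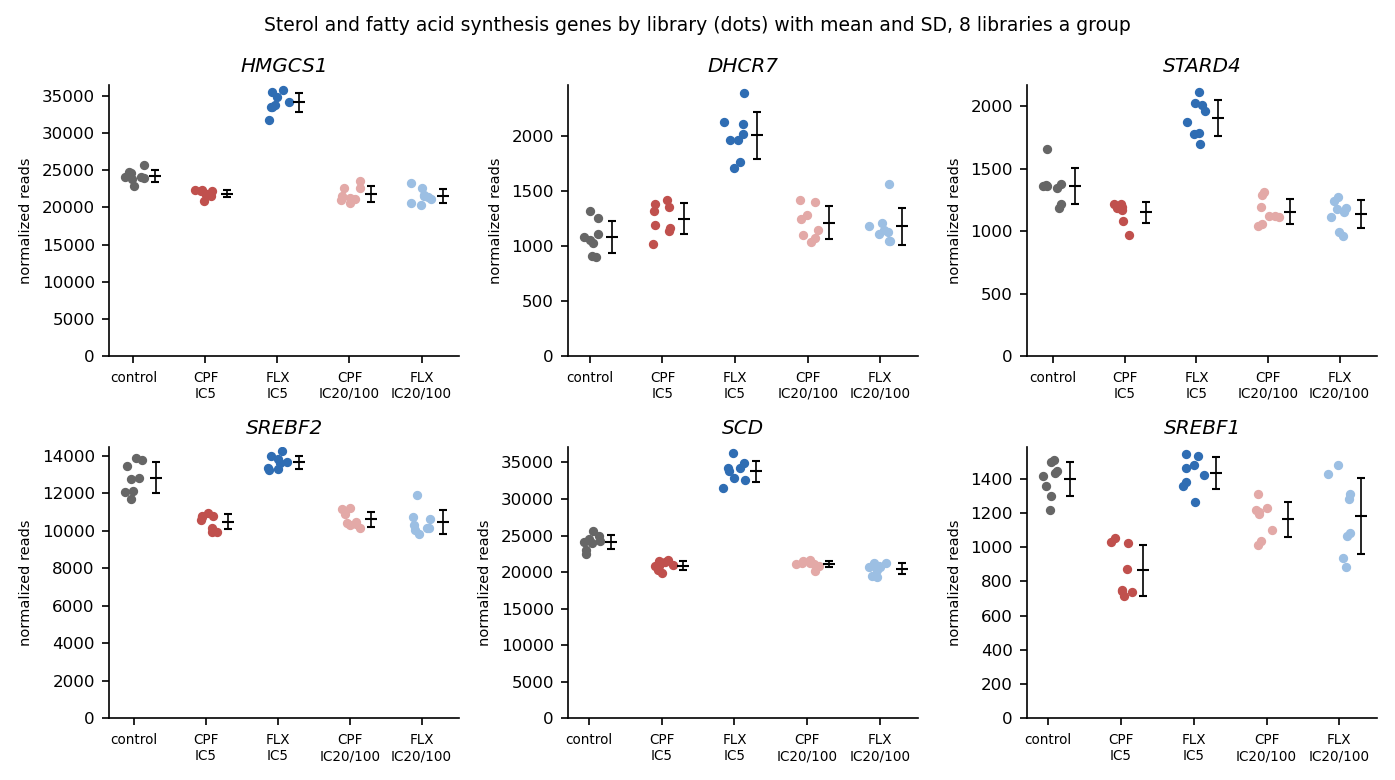
Normalized reads of 6 sterol and fatty acid synthesis genes in each library (dots) with the group mean and SD (bars), for controls, chlorpyrifos (CPF) and fluoxetine (FLX) at IC5 and IC20/100, 8 libraries a group, axes starting at 0. In HMGCS1, DHCR7, STARD4 and SCD the fluoxetine IC5 dots stand above the other 4 groups. In SREBF1 the chlorpyrifos IC5 dots, at 713 to 1054, stand below the controls and fluoxetine IC5.

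Genes of fatty acid synthesis were also lower with chlorpyrifos. Of 16 members, 11 were lower and 0 higher (background 3.20% lower), with a median log2 difference of -0.33. SCD, the desaturase that makes oleate (chr10:100347124-100364834, plus strand), was at 19890 to 21600 normalized reads with chlorpyrifos and 31510 to 36310 with fluoxetine. Its log2 difference, -0.69 ± 0.03, had the smallest adjusted p of the genes named here (2.0e-28). FADS2, a desaturase of polyunsaturated fatty acids, was at 7534 to 8379 and 9389 to 10640 (log2 difference -0.37 ± 0.04). PNPLA3, a lipid droplet lipase and a known SREBP1 target, was at 95.6 to 132.7 and 154.7 to 191.0 (log2 difference -0.65 ± 0.13). In each of these genes all 8 fluoxetine libraries were above all 8 chlorpyrifos libraries.

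For SREBF1, every chlorpyrifos IC5 library was under the control range, while fluoxetine IC5 overlapped it. It was at 713 to 1054 normalized reads with chlorpyrifos, 1265 to 1545 with fluoxetine and 1219 to 1508 in controls. At IC20/100 it was at 1010 to 1311 with chlorpyrifos and 881 to 1479 with fluoxetine. The log2 difference from controls was -0.71 ± 0.09 with chlorpyrifos (adjusted p = 8.6e-10), and 0.06 ± 0.09 with fluoxetine (adjusted p = 0.75). The direct log2 difference was -0.77 ± 0.09 (adjusted p = 2.4e-10).

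A pair of genes of fatty acid handling differed in opposite directions. CPT1A, the gate through which long-chain fatty acids enter mitochondria for oxidation (chr11:68754620-68844410, minus strand), was at 446 to 769 normalized reads with chlorpyrifos and 136.2 to 249.5 with fluoxetine. Controls, at 231.5 to 388.4, were under every chlorpyrifos library and overlapped fluoxetine at the edge. Both IC20/100 groups were lower than the controls, at 125.2 to 164.0 with chlorpyrifos and 117.4 to 194.4 with fluoxetine. Its log2 difference from controls was 1.01 ± 0.13 with chlorpyrifos and -0.71 ± 0.13 with fluoxetine. The direct log2 difference was 1.71 ± 0.13, or 3.28-fold (adjusted p = 1.6e-17), and it was positive within each of the 6 sequencing runs. FABP3, a fatty acid binding protein of muscle and heart, was low in all 5 groups used here but fluoxetine IC5. It was at 64.0 to 89.7 normalized reads there, against 7.17 to 15.4 with chlorpyrifos and 8.77 to 25.2 in controls (log2 difference -2.68 ± 0.24, or 6.40-fold, adjusted p = 1.9e-14).

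SLC25A20, which carries acylcarnitine into mitochondria, was also higher with chlorpyrifos, at 175.6 to 210.7 normalized reads against 138.4 to 170.5 (log2 difference 0.36 ± 0.10). The list of fatty acid oxidation and PPAR targets as a whole did not move one way. Of 25 members, 20 were tested, 2 were higher and 2 lower (background 3.63% and 3.20%), and the median was 0.00. The lower count was 1 when any of 10 single libraries was left out.

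Lysosomal genes were lower with chlorpyrifos in 9 of 30 tested members (of 31 listed) and higher in 0 (background 3.20% lower), with a median log2 difference of -0.12. NPC2, which hands cholesterol out of the lysosome, was at 588 to 743 normalized reads with chlorpyrifos and 949 to 1050 with fluoxetine, without overlap, and controls were at 638 to 759. Its log2 difference was -0.61 ± 0.09 (adjusted p = 3.6e-07). LAMP2, a lysosomal membrane protein, was at 968 to 1231 and 1214 to 1425 (log2 difference -0.35 ± 0.06). TPP1, a lysosomal peptidase, was at 1068 to 1306 and 1274 to 1665 (log2 difference -0.27 ± 0.05). Against controls, 14 of the 30 were higher with fluoxetine and 0 lower, while with chlorpyrifos 7 were higher and 4 lower. Of all genes, 5.47% were higher with fluoxetine, and 9.92% were higher and 9.75% lower with chlorpyrifos. The fit of the 16 libraries alone called 6 of the 30 lower.

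Among 13 autophagy genes, 0 were higher and 2 lower (background 3.63% higher and 3.20% lower). These were WIPI1, a protein of the forming autophagosome, with a log2 difference of -0.45 ± 0.11, and OPTN, an autophagy receptor, with -0.44 ± 0.08. Without the run term the adjusted p of WIPI1 was 0.060. In the list of sphingolipid and phospholipid turnover, 1 of 20 was lower and 0 higher. It was PCYT2, of phosphatidylethanolamine synthesis, at 315 to 580 normalized reads against 507 to 637 (log2 difference -0.51 ± 0.12).

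Of the 15 largest lower genes of the naming rule, 7 are described together here. They were put side by side after their values were seen, form no fixed list and were not tested as a group. In each of them fluoxetine IC5 overlapped the controls, while chlorpyrifos IC5 and both IC20/100 groups had lower medians than the controls. CCN2, a secreted matricellular protein and a known target of YAP and TEAD (chr6:131948176-131951373, minus strand), was at 289.5 to 376.9 normalized reads with chlorpyrifos, 642 to 964 with fluoxetine and 663 to 808.5 in controls. No chlorpyrifos IC5 library reached the controls or fluoxetine IC5 (log2 difference -1.22 ± 0.07, or 2.32-fold, adjusted p = 5.9e-24). The log2 difference from controls was -1.20 ± 0.07 with chlorpyrifos and 0.02 ± 0.07 with fluoxetine. At IC20/100 the gene was at 373.2 to 414.3 with chlorpyrifos and 327.0 to 479.5 with fluoxetine, both under the control range and that of fluoxetine IC5. The CCN2 promoter, at chr6:131951323-131951622, minus strand, is shown because it holds GGAATG, the core bound by TEAD factors, 3 times (capitals).
CCN2: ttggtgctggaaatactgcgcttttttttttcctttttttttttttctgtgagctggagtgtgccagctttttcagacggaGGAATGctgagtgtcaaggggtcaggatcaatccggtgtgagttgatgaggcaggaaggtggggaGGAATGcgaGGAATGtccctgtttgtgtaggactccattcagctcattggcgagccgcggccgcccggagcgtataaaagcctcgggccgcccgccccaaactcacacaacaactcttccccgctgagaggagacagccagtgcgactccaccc
Of all promoters in the table, 14% hold GGAATG or its reverse complement at least once and 0.128% at least 3 times.

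THBS2, a matrix glycoprotein, was at 56.3 to 69.1 normalized reads with chlorpyrifos and 109.2 to 250.3 with fluoxetine (log2 difference -1.30 ± 0.24). ANXA2, a membrane-binding annexin, was at 298.5 to 414.4 and 615 to 896 (log2 difference -1.02 ± 0.09, adjusted p = 1.0e-14). CNN2, a calponin that binds actin, was at 186.4 to 324.2 and 367.3 to 471.9 (log2 difference -0.91 ± 0.10). For these 3 genes the compounds did not overlap at IC5. At IC20/100 the medians with chlorpyrifos and fluoxetine were 88.1 and 81.7 for THBS2, 330.1 and 361.4 for ANXA2 and 235.1 and 242.8 for CNN2, against control medians of 140.9, 580.9 and 416.7. ADAMTSL4, of fibrillin matrix, was at 75.7 to 130.6 and 159.4 to 286.2 (log2 difference -0.93 ± 0.14). ZNF185, which associates with actin, was at 195.2 to 245.2 and 365.8 to 426.8 (log2 difference -0.84 ± 0.08). FGFBP3, a carrier that releases fibroblast growth factors, was far more abundant, at 5345 to 6291 and 9566 to 11220 (log2 difference -0.84 ± 0.07, adjusted p = 3.7e-17). At IC20/100 FGFBP3 was at 6198 to 6931 with chlorpyrifos and 5775 to 6760 with fluoxetine, and controls were at 8911 to 11180. Fluoxetine IC5 was thus the 1 exposed group of the 4 that stood at the control level of FGFBP3. All 4 exposed groups share the vehicle, which is unknown for the controls.

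Some markers of mesenchyme and pericytes were also lower with chlorpyrifos. Of 13 listed, 11 were tested, 4 were lower (background 3.20%), 0 higher and 7 not called, with a median log2 difference of -0.48. ACTA2, smooth muscle actin, was at 55.4 to 70.8 normalized reads with chlorpyrifos and 79.3 to 99.1 with fluoxetine (log2 difference -0.55 ± 0.11). COL3A1, a fibrillar collagen, was at 96.2 to 204.1 and 160.7 to 284.0, and LUM, a collagen-binding proteoglycan, at 2.84 to 22.7 and 12.1 to 47.6. COL1A1 was at 29.9 to 222.8 and 104.0 to 360.1, with adjusted p = 0.034 and with 0.052 to 0.16 when any of 7 single libraries was left out. In the fit of the 16 libraries alone these 3 were not called (adjusted p = 0.069 for COL3A1, 0.074 for LUM and 0.10 for COL1A1), which left 1 of the 11 called lower. COL1A2, the most abundant of the 3 fibrillar collagen markers, was at 959 to 1382 and 1032 to 1620 (log2 difference -0.13, adjusted p = 0.51). The pericyte gene RGS5 had a positive difference, at 69.1 to 106.4 and 41.6 to 89.0 (log2 difference 0.39, adjusted p = 0.48). Summed over the list, the 13 markers gave 1989 to 2760 normalized reads with chlorpyrifos, 2343 to 3261 with fluoxetine and 2312 to 3013 in controls. The part of these cells in the results for CCN2 and the other 6 genes was not tested, and in bulk RNA fewer cells of a type and less RNA per cell cannot be told apart.

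Proliferation genes were higher with chlorpyrifos. Of 20 mitosis genes, 12 were higher and 0 lower (background 3.63% higher), with a median log2 difference of 0.28. Of 20 genes of DNA replication and S phase, 8 were higher and 0 lower, with a median of 0.25. Without chlorpyrifos IC5 replicate 4 the S phase count was 5. MKI67, the Ki-67 antigen of cycling cells (chr10:128096659-128126385, minus strand), was at 4107 to 4513 normalized reads with chlorpyrifos, 2961 to 3487 with fluoxetine and 2924 to 3656 in controls. The chlorpyrifos libraries stood above both of these groups, and the IC20/100 groups, at 3505 to 4389 and 3319 to 4439, overlapped them (direct log2 difference 0.41 ± 0.07, adjusted p = 2.4e-06). CENPF, a kinetochore protein, was at 2976 to 4427 and 1958 to 2931 (log2 difference 0.50 ± 0.10), and here fluoxetine was under controls (log2 difference -0.34 ± 0.10). BIRC5, survivin, was at 812 to 1006 and 615 to 806 (log2 difference 0.38 ± 0.08).

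PCNA, the clamp of the replication fork, was at 1687 to 1914 normalized reads with chlorpyrifos, 1390 to 1608 with fluoxetine and 1106 to 1484 in controls. The chlorpyrifos libraries stood above both of these groups, which overlapped, but the IC20/100 groups reached into their range, at 1578 to 1865 with chlorpyrifos and 1568 to 1935 with fluoxetine (direct log2 difference 0.30 ± 0.07, adjusted p = 0.0022). Against controls, 18 of the 20 S phase genes were higher with chlorpyrifos and 5 with fluoxetine, where 9.92% and 5.47% of all genes were higher. The list sum was also above most controls at IC20/100, with medians of 24720 with chlorpyrifos and 25790 with fluoxetine, beside 25530 with chlorpyrifos IC5 and 19490 in controls. For mitosis, 4 were higher and 1 lower with chlorpyrifos, and 0 were higher and 8 lower with fluoxetine (background 9.75% and 5.94% lower).

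**Figure D3:**
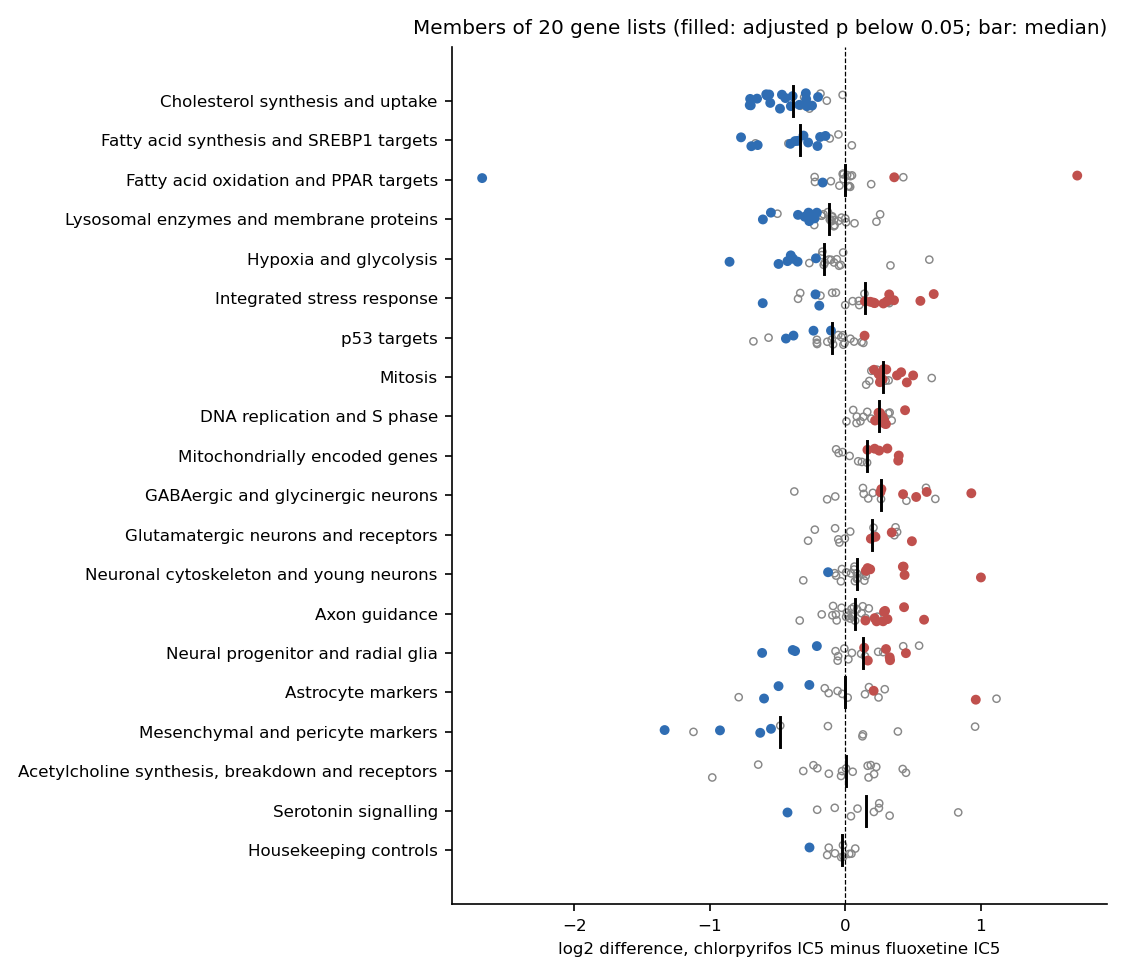
Each dot is a member of 1 of 20 gene lists at its log2 difference, chlorpyrifos IC5 minus fluoxetine IC5. Filled dots have an adjusted p below 0.05, red where higher and blue where lower with chlorpyrifos, and the black bar is the list's median. The medians of the cholesterol list (-0.39) and of mitosis (0.28) lie on opposite sides of 0, and the housekeeping list centres on -0.02.

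Several genes of neuronal identity were higher with chlorpyrifos, while the general neuron markers DCX and MAP2 were not called. In the GABAergic and glycinergic list 17 of 19 members were tested, 6 were higher and 0 lower (background 3.63% higher), with a median log2 difference of 0.27. Against controls, 2 of the 17 were higher and 1 lower with chlorpyrifos (background 9.92% and 9.75%). With fluoxetine, 0 were higher and 7 lower than in controls (background 5.47% and 5.94%). PRDM13, a regulator that favours inhibitory over excitatory fate in the dorsal spinal cord, was at 242.7 to 317.8 normalized reads with chlorpyrifos and 152.2 to 204.8 with fluoxetine (log2 difference 0.60 ± 0.06, adjusted p = 2.4e-11). LHX5, a LIM homeobox gene of inhibitory interneurons, was at 492 to 548 and 306 to 447, and its relative LHX1 at 1185 to 1778 and 878.5 to 1203. Their log2 differences were 0.43 ± 0.07 and 0.53 ± 0.07. GAD2, an enzyme of GABA synthesis, overlapped, at 41.8 to 114.0 and 23.3 to 80.7 (log2 difference 0.93 ± 0.26, adjusted p = 0.013). The call of GAD2 was lost without fluoxetine IC5 replicate 6 (adjusted p = 0.063) and in the fit of the 16 libraries (adjusted p = 0.12).

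SYT2, a calcium sensor of fast transmitter release (chr1:202590596-202710417, minus strand), was at 450.7 to 557.8 normalized reads with chlorpyrifos, 238.9 to 302.6 with fluoxetine and 378.7 to 574.8 in controls. Fluoxetine was alone in being low (log2 difference 0.91 ± 0.07, adjusted p = 2.1e-17). VGF, a secreted neuropeptide precursor induced by neurotrophins, was at 532 to 615 and 265.3 to 346.8 (log2 difference 0.89 ± 0.08). BDNF itself was at 18.3 to 41.8 and 9.98 to 24.9 (log2 difference 0.87 ± 0.14), in a medium to which the protein is added. For SYT2, VGF and BDNF the log2 difference of fluoxetine from controls was -0.82, -0.86 and -0.88, while chlorpyrifos differed from controls by 0.09, 0.03 and -0.01 with adjusted p from 0.39 to 0.97.

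KLF10, an early response gene of TGF-beta signalling, was at 658 to 784 normalized reads with chlorpyrifos and 352 to 508 with fluoxetine (log2 difference 0.82 ± 0.06). ANOS1, an adhesion protein that guides migrating neurons, was at 883 to 1155 and 560 to 635 (log2 difference 0.76 ± 0.06). PTCHD1, a patched-domain gene, was at 115.7 to 268.1 and 38.3 to 121.4, with overlap (log2 difference 1.20 ± 0.23), and the receptor kinase ALK at 80.6 to 123.0 and 45.2 to 74.7 (log2 difference 0.75 ± 0.13). All 4 were lower than in controls with fluoxetine. With chlorpyrifos, ANOS1 was also lower (log2 difference from controls -0.24 ± 0.06), and the other 3 were not called against controls.

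Of 16 glutamatergic genes, 4 were higher and 0 lower (background 3.63% higher and 3.20% lower). The higher count went to 1 in the fit of the 16 libraries and to 2 without chlorpyrifos IC5 replicate 7. GRIK3, a kainate receptor subunit, was at 1656 to 1859 normalized reads and 1415 to 1633 (log2 difference 0.22 ± 0.06). In the list of neuronal cytoskeleton and young neurons 7 of 24 were higher and 1 lower, against the same background. The proneural gene NEUROD1 was at 203.4 to 265.4 and 139.2 to 217.3 (log2 difference 0.43 ± 0.06, adjusted p = 4.8e-08). TBR1, of early cortical neurons, was near the filter, at 10.3 to 41.4 and 5.75 to 15.0 (log2 difference 1.00 ± 0.26), and NEFH, the heavy neurofilament, at 70.6 to 120.1 and 50.4 to 87.8 (log2 difference 0.44 ± 0.11). In the fit of the 16 libraries the adjusted p was 0.071 for TBR1 and 0.12 for NEFH. DCX did not pass the test (log2 difference 0.07, 95% interval -0.05 to 0.19). MAP2, a dendrite protein, was at 16410 to 19140 and 15420 to 16930 (log2 difference 0.14, 95% interval 0.04 to 0.25, adjusted p = 0.084). MAP2 was called in the fit of the 16 libraries (adjusted p = 0.0086) and without methyl mercury IC20/100 replicate 8, a library whose total stands apart (adjusted p = 0.00014).

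Axon guidance genes were higher in 9 of 31 and lower in 0 (background 3.63% higher), a count that was 5 in the fit of the 16 libraries. EPHB1, an ephrin receptor, was at 788 to 922 normalized reads with chlorpyrifos and 605 to 729 with fluoxetine (log2 difference 0.29 ± 0.05), and EPHA3 at 255.6 to 353.4 and 216.9 to 303.5 (log2 difference 0.31 ± 0.08). UNC5A, a netrin receptor, was at 32.2 to 68.2 and 15.0 to 34.6 (log2 difference 0.58 ± 0.13, adjusted p = 0.11 in the fit of the 16 libraries). For UNC5A and EPHA3 both compounds were under the controls, fluoxetine further. The log2 differences from controls were -0.68 and -1.26 for UNC5A, and -0.25 and -0.57 for EPHA3, with chlorpyrifos first.

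DUSP4 and DUSP6, phosphatases that switch off MAP kinases and are induced by ERK activity, were both higher with chlorpyrifos. DUSP4 had very little spread, at 1584 to 1655 normalized reads with chlorpyrifos, 1130 to 1202 with fluoxetine and 1464 to 1576 in controls. Its 3 ranges did not touch (direct log2 difference 0.47 ± 0.02, adjusted p = 2.8e-26). DUSP6 was at 247.3 to 354.3 and 135.7 to 246.2, with most controls above both at 339 to 549 (log2 difference 0.63 ± 0.11). JUN, a subunit of AP-1, went the other way, at 1852 to 2185 with chlorpyrifos and 2480 to 3132 with fluoxetine (log2 difference -0.51 ± 0.05, adjusted p = 9.1e-13). In the list of immediate early and activity genes 3 of 19 tested (of 20) were higher and 1 lower (background 3.63% and 3.20%).

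Progenitor and radial glia genes split, with 6 of 22 higher and 4 lower (background 3.63% higher and 3.20% lower). FABP7, the fatty acid binding protein of radial glia, was at 1857 to 1987 normalized reads with chlorpyrifos, 2771 to 3124 with fluoxetine and 3226 to 3474 in controls (log2 difference -0.61 ± 0.07, adjusted p = 8.5e-11). VIM, vimentin, was at 52770 to 57840 and 69280 to 77120, with controls at 68850 to 75020 (log2 difference -0.37 ± 0.05). For both genes the IC20/100 groups were under the controls, at 1864 to 2087 and 1928 to 2212 for FABP7 and at 58130 to 64530 and 55170 to 62150 for VIM, with chlorpyrifos first. LIN28A, which binds RNA and marks early progenitors, was at 86.3 to 137.7 and 120.1 to 164.6 (log2 difference -0.39 ± 0.08). PAX6 and NES were higher with chlorpyrifos, PAX6 at 680 to 1226 against 488 to 645 (log2 difference 0.45 ± 0.09) and NES at 16930 to 18820 against 14990 to 16540 (log2 difference 0.17 ± 0.04). SOX2 did not pass the test (log2 difference 0.02, 95% interval -0.04 to 0.09). Without chlorpyrifos IC5 replicate 7 or fluoxetine IC5 replicate 1, and with no filter on low values, 3 of the 22 were called higher.

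Glial markers gave no common direction. Of 18 astrocyte markers, 16 were tested, 2 were higher and 3 lower (background 3.63% higher and 3.20% lower). S100B was at 24.5 to 36.4 normalized reads with chlorpyrifos and 9.98 to 19.25 with fluoxetine, without overlap (log2 difference 0.96 ± 0.16, adjusted p = 9.4e-06). ALDOC, also listed with the glucose and hypoxia genes, was 1 of the 3 lower, at 596 to 715 against 859 to 1008 (log2 difference -0.49 ± 0.08). GFAP, the intermediate filament of astrocytes, did not pass the test (log2 difference 1.12 ± 0.46, adjusted p = 0.14, 95% interval 0.21 to 2.03). Of 13 oligodendrocyte lineage markers, 10 were tested, 1 was higher and 0 lower. Of 13 endothelial and microglial markers, 6 were tested and 0 called by limma, edgeR or DESeq2. In limma 0 of the 6 had an unadjusted p below 0.05, beside 3716 of all 20136 genes. The list sum was 49.9 to 120.6 with chlorpyrifos and 54.9 to 87.9 with fluoxetine.

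DHRS3, a reductase that returns retinaldehyde to retinol and is induced by retinoic acid, was at 142.4 to 201.9 normalized reads with chlorpyrifos, 63.3 to 101.9 with fluoxetine and 152.4 to 225.0 in controls. Fluoxetine was low and the other 2 groups overlapped (direct log2 difference 1.01 ± 0.13, adjusted p = 9.9e-09). CYP26B1, which breaks down retinoic acid, was at 335.7 to 673.5 and 238.0 to 442.8, both under the controls (log2 difference 0.56 ± 0.15, adjusted p = 0.061 in the fit of the 16 libraries). CRABP1, a retinoic acid binding protein, was lower with chlorpyrifos, at 2707 to 3225 against 3338 to 3809 (log2 difference -0.30 ± 0.07). In all, 3 of the 14 tested retinoid genes (of 17) were higher and 1 lower (background 3.63% and 3.20%). In the fit of the 16 libraries 1 was called higher.

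In the WNT list 6 of 22 tested (of 27) were higher and 2 lower (background 3.63% higher and 3.20% lower). The higher count was 4 without fluoxetine IC5 replicate 3 and in the fit of the 16 libraries, and the lower count was 1 without chlorpyrifos IC5 replicate 4 or fluoxetine IC5 replicate 7. SFRP1, a secreted WNT antagonist, was at 252.8 to 352.2 normalized reads with chlorpyrifos and 197.1 to 267.2 with fluoxetine (log2 difference 0.42 ± 0.06). The receptor FZD5 was at 457 to 565 and 352 to 429 (log2 difference 0.35 ± 0.07), and the ligand WNT7A at 485 to 528.5 and 572 to 775 (log2 difference -0.34 ± 0.08). In the TGF-beta and BMP list 4 of 20 tested (of 22) were higher and 1 lower, against the same background. In the fit of the 16 libraries 2 were higher. AMH was at 1071 to 1303 and 872 to 1012, with controls at 534 to 704 (log2 difference 0.31 ± 0.08). BMP7 was the lower one (log2 difference -1.01 ± 0.30, adjusted p = 0.022), but fluoxetine IC5 replicate 2 stood at 3488 against 338.5 to 536.8 in the other 7. Without it the log2 difference was -0.64 and the adjusted p 0.15, and in the fit of the 16 libraries the adjusted p was 0.23.

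Genes of the integrated stress response, which ATF4 drives when amino acids are short or proteins misfold, were lower than in controls with both compounds. In each contrast with controls 25 of 27 were lower and 0 higher, where 9.75% of all genes were lower with chlorpyrifos and 5.94% with fluoxetine. The list sum was also under the control range at the lower concentration, at 28760 to 30930 normalized reads with chlorpyrifos IC20/100 and 28180 to 31930 with fluoxetine IC20/100. It was 27080 to 29400 with chlorpyrifos IC5, 25680 to 26980 with fluoxetine IC5 and 45600 to 55710 in controls. Exposure to a compound and the vehicle cannot be told apart in these contrasts, since the sources used here do not say whether controls received DMSO. Between the compounds, 11 were higher and 3 lower with chlorpyrifos (background 3.63% higher and 3.20% lower), with a median log2 difference of 0.15. SLC7A11, the cystine importer, was at 119.5 to 160.4 normalized reads with chlorpyrifos and 56.5 to 116.4 with fluoxetine, far under the controls at 440 to 851. Its log2 difference between the compounds was 0.65 ± 0.13, and from controls it was -2.38 ± 0.13 with chlorpyrifos and -3.04 ± 0.13 with fluoxetine. MTHFD2, of mitochondrial one-carbon metabolism, was at 380.0 to 556.4 and 256.7 to 355.2, with controls at 681 to 1077 (log2 difference 0.56 ± 0.08). ASNS, asparagine synthetase, was at 1369 to 1587 and 996 to 1324, with controls at 3092 to 4228 (log2 difference 0.33 ± 0.07). ATF3 went the other way, at 155.3 to 290.9 and 221.2 to 346.6 (log2 difference -0.61 ± 0.15, adjusted p = 0.0043). The fit of the 16 libraries called 9 higher and 6 lower.

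**Figure D4:**
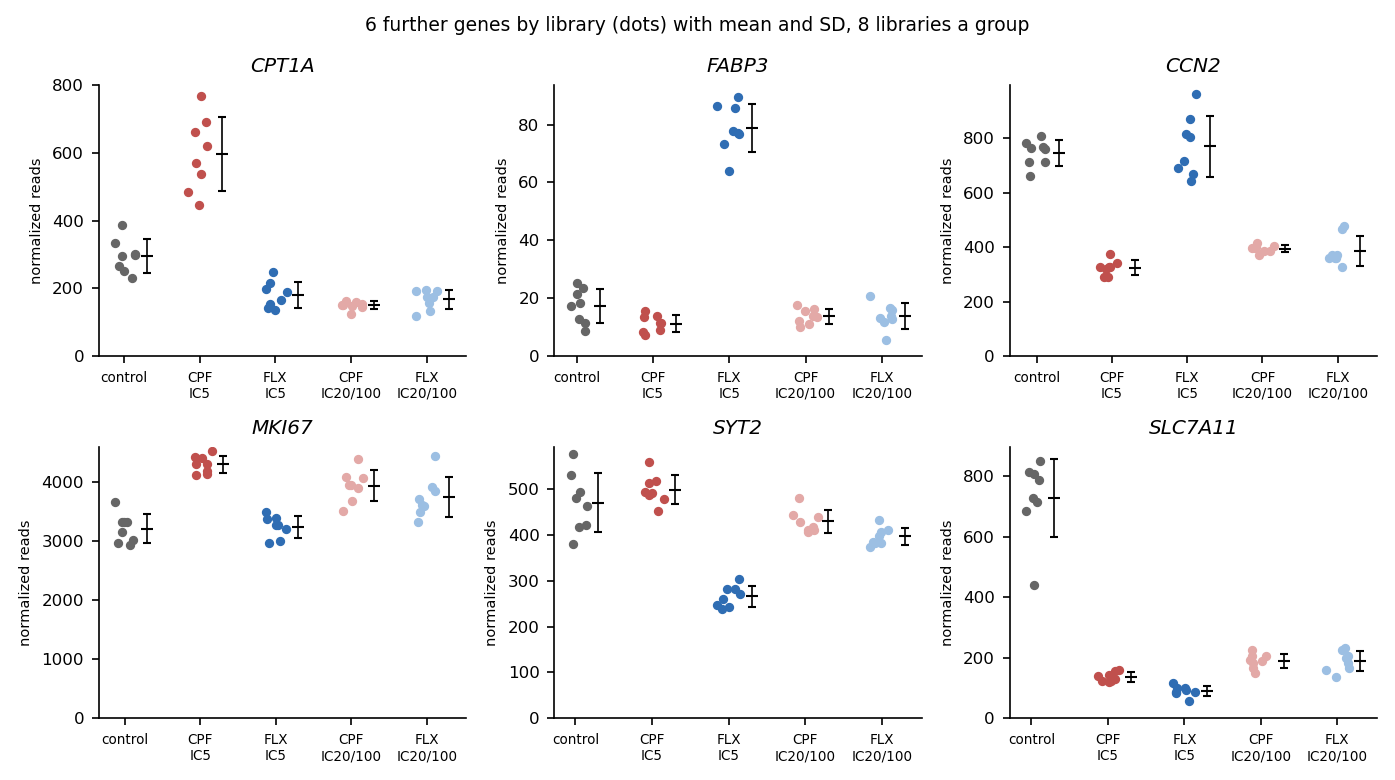
Normalized reads of CPT1A, FABP3, CCN2, MKI67, SYT2 and SLC7A11 in each library (dots) with the group mean and SD (bars), for controls, chlorpyrifos (CPF) and fluoxetine (FLX) at IC5 and IC20/100, 8 libraries a group, axes starting at 0. CPT1A stands out with chlorpyrifos IC5 (446 to 769), FABP3 with fluoxetine IC5 (64.0 to 89.7), and SLC7A11 is lower in the 4 exposed groups than in controls.

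Genes of glucose uptake and hypoxia were lower with chlorpyrifos in 7 of 21 and higher in 0 (background 3.20% lower), with a median log2 difference of -0.16. HK2, hexokinase, was at 1394 to 1617 normalized reads with chlorpyrifos and 1792 to 2092 with fluoxetine (log2 difference -0.38 ± 0.04, adjusted p = 2.0e-10). The glucose transporter SLC2A1 was at 1242 to 1402 and 1648 to 1889 (log2 difference -0.40 ± 0.06). The aldolase ALDOC was at 596 to 715 and 859 to 1008 (log2 difference -0.49 ± 0.08), and the oxygen sensor EGLN3 at 36.9 to 92.0 and 84.8 to 162.3 (log2 difference -0.85 ± 0.17). For HK2, SLC2A1 and ALDOC chlorpyrifos did not pass the test against controls, and fluoxetine was above them by 0.30, 0.32 and 0.33 on the log2 scale.

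BHLHE40, a transcriptional repressor of the clock and of hypoxia responses, was at 69.1 to 213.4 normalized reads with chlorpyrifos, 330.2 to 418.1 with fluoxetine and 178.0 to 276.2 in controls. It was lower than in controls with chlorpyrifos and higher with fluoxetine (direct log2 difference -1.62 ± 0.17, or 3.08-fold, adjusted p = 8.0e-12). PRODH, proline dehydrogenase of mitochondria, was at 66.7 to 163.6 and 216.9 to 277.7, and controls were at 103.5 to 144.7 (log2 difference -1.21 ± 0.13).

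Of the 13 protein genes of the mitochondrial genome, 6 were higher with chlorpyrifos and 0 lower (background 3.63% higher). MT-CO3, a subunit of cytochrome oxidase, was at 51400 to 58150 normalized reads and 37720 to 44910 (log2 difference 0.39 ± 0.06), and MT-CYB at 23470 to 27280 and 19100 to 22570 (log2 difference 0.31 ± 0.05). The mitochondrial share of all reads, a usual sign of RNA quality, was 2.58% to 2.97% with chlorpyrifos, 2.48% to 2.82% with fluoxetine and 2.32% to 2.62% in controls. Its part in the differences of other genes was not tested. Reads of mitochondrial genes and of ANXA2 can be shared with near-identical copies elsewhere in the genome, which makes their values uncertain.

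Genes of the known targets of either compound did not pass the test between the compounds at IC5. Chlorpyrifos is an acetylcholinesterase inhibitor by way of its oxon, and the gene ACHE was at 112.6 to 155.6 normalized reads with chlorpyrifos and 116.7 to 164.6 with fluoxetine. Its log2 difference did not pass the test (-0.12 ± 0.12, 95% interval -0.36 to 0.12). BCHE, butyrylcholinesterase, was at 324 to 518 and 351 to 582 (log2 difference -0.02, 95% interval -0.19 to 0.14). PNPLA6, the neuropathy target esterase, was at 601 to 865 and 698 to 1044 (log2 difference -0.25, 95% interval -0.52 to 0.03). SLC6A4, the serotonin transporter that fluoxetine blocks, was at 8.36 to 18.45 and 10.4 to 25.2, near the detection filter (log2 difference -0.21, 95% interval -0.65 to 0.24). These intervals hold 0 but do not show that the compounds act alike on these genes. Of 17 tested genes of acetylcholine handling (of 18), 0 were called by limma, edgeR or DESeq2 (background 6.82% called by limma). In limma 2 had an unadjusted p below 0.05, beside 3716 of all 20136 genes. With 17 genes these counts do not set the list apart from all genes. Of 16 serine hydrolases and paraoxonases (of 19), 1 was lower (background 3.20%), PON2 (log2 difference -0.12 ± 0.03).

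Of 10 tested serotonin genes (of 20), TPH2, the serotonin-making hydroxylase of neurons, was the 1 called (background 6.82%). It was at 21.4 to 32.2 normalized reads with chlorpyrifos and 28.6 to 55.9 with fluoxetine (log2 difference -0.43 ± 0.14, adjusted p = 0.037). The call was lost in the fit of the 16 libraries (adjusted p = 0.065) and when any of 8 single libraries was left out (0.051 to 0.11). In the catecholamine list 1 of 16 tested (of 20) was higher and 1 lower (background 3.63% higher and 3.20% lower). ADRA2A, an adrenergic receptor, was at 78.8 to 105.0 and 133.0 to 173.5, both above the controls at 49.5 to 72.3 (log2 difference -0.64 ± 0.09, adjusted p = 1.9e-07). Both IC20/100 groups were also above the controls, at 81.1 to 114.7 with chlorpyrifos and 76.3 to 113.8 with fluoxetine. PHOX2A, of noradrenergic neurons, was at 34.3 to 67.5 and 27.5 to 45.1 at IC5 (log2 difference 0.65 ± 0.15).

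In the remaining lists the counts were small in number, beside 3.63% of all genes called higher and 3.20% lower. The share called lower was above that background for p53 targets, heat shock proteins, NRF2 targets and chaperones. It was also above it for synaptic genes, voltage-gated channels and housekeeping controls, so such a share does not set the stress lists apart. The p53 targets had 1 higher and 4 lower of 22, among them ZMAT3, at 670 to 809 normalized reads against 822 to 1117 (log2 difference -0.38 ± 0.08). Heat shock proteins had 1 higher and 3 lower of 16, among them HSPA4L, a relative of HSP70, at 1494 to 1799 against 2145 to 2482 (log2 difference -0.45 ± 0.08). There was 1 higher and 4 lower of 19 NRF2 targets, and 0 higher and 3 lower of 19 chaperones of the endoplasmic reticulum. Synaptic vesicle and scaffold genes had 2 higher and 2 lower of 26, and voltage-gated channels 1 higher and 2 lower of 23 tested (of 24). Of 11 sterol export genes 1 was higher and 0 lower. Calls were 0 by limma, edgeR and DESeq2 for 11 tested xenobiotic response genes (of 17) and for 7 tested metallothionein and metal transport genes (of 10). In limma 1 and 2 of these had an unadjusted p below 0.05, beside 3716 of all 20136 genes. Counts of 1 or 2 in these lists were unstable: the synaptic genes lower went to 0 without chlorpyrifos IC5 replicate 4, and the p53 gene higher to 0 without any of 11 libraries. The p53 genes lower went to 2 without chlorpyrifos IC5 replicate 2 or fluoxetine IC5 replicate 7. Of 10 housekeeping controls 1 was called, B2M (log2 difference -0.27 ± 0.07).

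At IC20/100, where the groups share no library with those at IC5, few genes were called. Of the 20136 genes, 5 (0.0248%) were called, all 5 higher with chlorpyrifos, and 1308 had an unadjusted p below 0.05. The count depended on the tool and setting, with 19 by edgeR and 58 by DESeq2. In limma it was 0 with no run term (1096 at an unadjusted p below 0.05) and 0 with no filter (1913 unadjusted). The 5 genes lie outside the rule for named genes and were chosen after their values were seen. PCSK1N, a neuroendocrine protease inhibitor, was at 787 to 965 normalized reads with chlorpyrifos IC20/100 and 510 to 826 with fluoxetine IC20/100 (log2 difference 0.50 ± 0.10, adjusted p = 0.047). The log2 differences were 0.16 for ZFP36L2, an mRNA decay factor, 0.18 for the WNT receptor FZD2, 0.64 for HPDL and 0.14 for the kinase gene SBK1. At IC5 the log2 difference of ZFP36L2 was -0.19 ± 0.04, the opposite sign and also called.

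The genes called at IC5 had smaller differences at the lower concentration. The median size of their log2 difference was 0.31 at IC5 and 0.06 at IC20/100, beside 0.12 and 0.08 over all genes tested. Choosing genes by a call at IC5 itself makes the value at IC5 the larger, so the sizes are given as a description. The sign was the same at both concentrations for 799 of the 1374 (58.2%), against 52.0% of all genes. The test of the difference between the 2 contrasts called 378 of 20136 genes (1.88%), 233 of them more negative (1.16%) and 145 more positive (0.720%) at IC5 than at IC20/100. Leaving out methyl mercury IC20/100 replicate 8 raised that count to 651, and the count at IC20/100 from 5 to 43. For HMGCS1 the compound contrast was -0.65 at IC5 and 0.02 at IC20/100, a difference of -0.67 ± 0.06 (adjusted p = 9.3e-14). In the cholesterol list 15 of 25 members passed this test, all more negative at IC5, and the list's median at IC20/100 was 0.03 with 0 members called. CPT1A gave 1.71 and -0.16 (difference 1.87 ± 0.19), CCN2 -1.22 and 0.04 (difference -1.25 ± 0.10), and SYT2 0.91 and 0.11 (difference 0.80 ± 0.10).

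**Figure D5:**
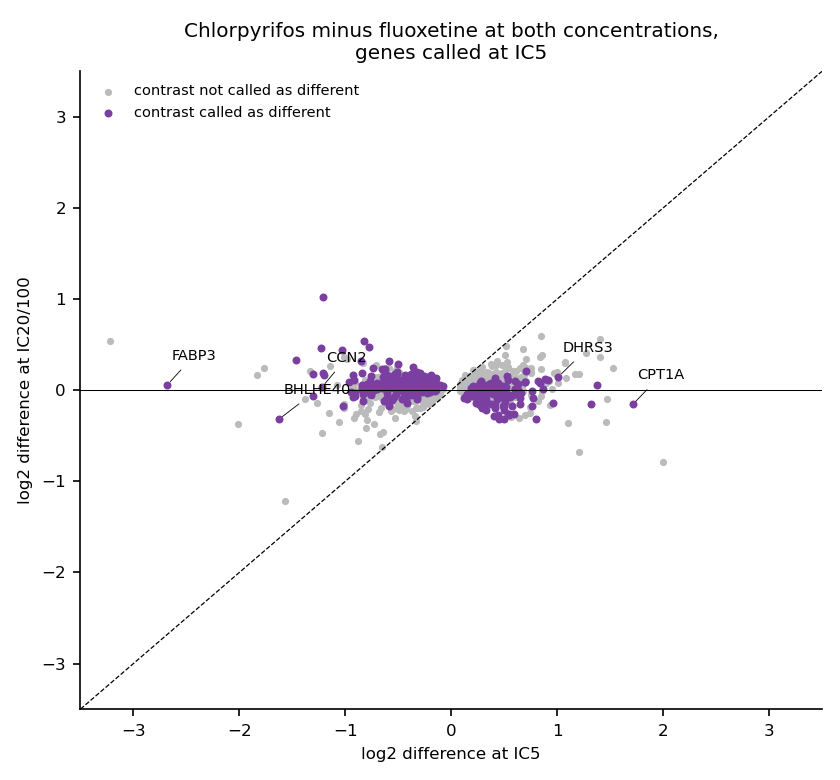
Each dot is 1 of the 1374 genes called at IC5, with the log2 difference chlorpyrifos minus fluoxetine at IC5 (horizontal) and at IC20/100 (vertical), 8 libraries a group. The dashed line marks equal values, and purple dots passed the test of the difference between the concentrations. Most dots lie near 0 on the vertical axis, FABP3 at 0.06 and CPT1A at -0.16.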

How the data were processed

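RNA was sequenced with stranded polyA libraries (TruSeq), 96 in 12 groups of 8 over 6 sequencing runs. Per the submitters' processing notes, bcl2fastq, FastQC 0.11.8, MultiQC 1.0, Salmon 1.3.0, DESeq2 1.30.0 and GRCh38 were used. The sources used here name no annotation release, and positions are from GENCODE 29 by gene ID. The deposited table of the authors holds a signal per gene, the count divided by 1 size factor per library, for 58434 genes, of which 41986 have a symbol. In each library 100% of values were whole multiples of 1 read (tolerance 0.001), which gave back the reads and the depth.

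limma 3.58.1 (R 4.3.3) was fitted with a trended prior to log2(value + 2) of the 20136 genes that reached 10 in 8 or more of the 88 day 10 libraries. Group and run were terms, with 72 residual degrees of freedom. A fold on this scale understates changes of low genes. Alternatives were edgeR 4.0.16 and DESeq2 1.42.0 on the recovered reads, other pseudocounts, filters, scalings and terms, and each of the 16 libraries left out. The fits were tested on simulated data. Over all genes the deviations of same-numbered IC5 libraries had correlations of -0.037 to 0.049, and the main fit does not pair them. A correlation over all genes cannot exclude an effect that same-numbered libraries share in some genes.

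The members and the 38 gene lists (726 genes) were chosen with earlier results of these data known. The text names genes by a rule: the 15 largest called protein-coding differences per direction (at least 1.5-fold, mean at least 100, 1 sign in all 6 runs), up to 5 called members per list, fixed targets and markers, and the 5 largest differences between concentrations per direction. A further 6 genes were named after their values were seen. Promoters are from RefSeq. Some genes of the rule are not reported here by name.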

Additional observations from a re-analysis of the deposited data

Results flagged for a closer look

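The differences below are the compound contrast (chlorpyrifos minus fluoxetine, log2) at IC5 minus the same contrast at IC20/100, each of which passed the test of that difference (limma, adjusted p below 0.05, 8 libraries in each of the 4 groups). They concern 58 of the 101 genes named. For named sterol and fatty acid synthesis genes they were -0.67 for HMGCS1, -0.75 for DHCR7, -0.73 for MVD, -0.72 for STARD4, -0.43 for SREBF2, -0.73 for SCD, -0.79 for SREBF1, -0.40 for FADS2 and -0.71 for PNPLA3. In fatty acid handling and lysosomes the values were 1.87 for CPT1A, -2.74 for FABP3, -0.57 for NPC2 and -0.38 for LAMP2. For the 7 genes described with CCN2, which form no fixed list, they were -1.25 for CCN2, -1.47 for THBS2, -0.84 for ANXA2, -0.85 for CNN2, -1.09 for ADAMTSL4, -1.03 for ZNF185 and -0.87 for FGFBP3. For named cell cycle genes they were 0.34 for MKI67, 0.51 for CENPF and 0.42 for BIRC5. For named neuronal genes they were 0.80 for SYT2, 0.76 for VGF, 0.86 for BDNF, 0.78 for ANOS1, 0.50 for PRDM13, 0.37 for LHX1, 0.40 for LHX5, 0.53 for NEUROD1, 0.45 for EPHA3 and 0.27 for EPHB1. For named signalling and early response genes they were 0.44 for DUSP4, 0.67 for DUSP6, 0.72 for KLF10, -0.59 for JUN, 0.86 for DHRS3, 0.41 for SFRP1 and -0.66 for ADRA2A. Among progenitor and glial genes the values were -0.51 for FABP7, -0.41 for VIM, -0.41 for LIN28A, 0.48 for PAX6 and 1.11 for S100B. For stress genes they were 0.69 for SLC7A11, 0.63 for MTHFD2, 0.37 for ASNS, -0.38 for ZMAT3 and -0.42 for HSPA4L. For glucose, hypoxia, proline and mitochondrial genes they were -0.38 for HK2, -0.37 for SLC2A1, -0.49 for ALDOC, -1.31 for BHLHE40, -1.37 for PRODH, 0.37 for MT-CO3 and 0.26 for MT-CYB. ZFP36L2, called with opposite signs at the concentrations, had -0.35.

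In 8 of 202 groups of 8 libraries checked, 1 library stood far from the others by the critical gap for 8 values at the 95% level. Chance alone does this in about 1 group in 20. ATF3 was highest in chlorpyrifos IC5 replicate 4, at 290.9 normalized reads against 155.3 to 193.3 in the others. BMP7 was highest in fluoxetine IC5 replicate 2, at 3488 normalized reads against 338.5 to 536.8 in the others. CRABP1 was highest in chlorpyrifos IC5 replicate 8, at 3225 normalized reads against 2707 to 2935 in the others. LAMP2 was lowest in fluoxetine IC5 replicate 3, at 1214 normalized reads against 1340 to 1425 in the others. MVD was highest in fluoxetine IC5 replicate 3, at 3265 normalized reads against 2093 to 2610 in the others. NES was highest in chlorpyrifos IC5 replicate 8, at 18820 normalized reads against 16930 to 17580 in the others. PAX6 was highest in chlorpyrifos IC5 replicate 3, at 1226 normalized reads against 679.8 to 884.2 in the others. VIM was lowest in chlorpyrifos IC5 replicate 4, at 52770 normalized reads against 55630 to 57840 in the others. Without the library in question BMP7 lost its call, and the other 7 genes kept theirs.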

How the results depend on the processing

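At IC5 the direction of every named gene that was called held in every alternative run, and 85 of these 89 kept their call without each of the 16 libraries. The fit of the 16 libraries alone gave 442 higher and 47 higher by at least 1.5-fold. It tests fewer genes on fewer residual degrees of freedom. Leaving out 1 of the 16 libraries gave 603 to 689 genes higher and 533 to 607 lower, and by at least 1.5-fold 75 to 104 and 122 to 146. Counts higher and lower were 792 and 694 by DESeq2 and 699 and 673 by edgeR. Without methyl mercury IC20/100 replicate 8 they were 1020 and 933. The count at IC20/100, 5, was small and moved with nearly every choice: 3 and 8 with pseudocounts of 0.5 and 8, 0 with no filter, 9 with a filter at 50, 3 with TMM scaling, 1 with only the groups compared, 0 with no run term, 43 without methyl mercury IC20/100 replicate 8, 19 by edgeR and 58 by DESeq2. The cause was not tested. The test of the difference between concentrations gave 651 without that methyl mercury library, against 378.

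With the replicate number as a replicate block, 807 were higher and 709 lower at IC5, 19 were called at IC20/100 and 444 passed the test of the difference. The correlation of the deviations of same-numbered IC5 libraries ran from -0.037 to 0.049 over 8 pairs, and 2 of 8 correlated best with their own number. Such a correlation over all genes cannot exclude an effect shared in some genes. The mitochondrial share was highest in replicate 8 for controls (2.62%), chlorpyrifos IC5 (2.97%), chlorpyrifos IC20/100 (2.79%) and fluoxetine IC20/100 (2.76%). For fluoxetine IC5 it was highest in replicate 6 (2.82%). Whether replicate numbers mark a shared batch was not tested further. Depth limits genes near the filter, such as SLC6A4, whose interval spans -0.65 to 0.24, and all libraries are technical replicates of 1 experiment.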
